A study of Mus musculus with 9 samples.

Results

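The spleen is held together by a scaffold of collagens, laminins, proteoglycans and glycoproteins that its stromal cells lay down, cross-link and remodel. A set of 40 genes of this scaffold and of the cells that make it were followed here on whole-genome arrays: 13 collagen chains, 6 laminin, nidogen and perlecan genes of the basement membrane, 3 small leucine-rich proteoglycans, 6 elastic fibre and fibronectin genes, 4 matricellular genes, 5 proteases and protease inhibitors and 3 genes of stromal cell identity. The members were all non-control probes whose transcript accession maps to 1 of these 40 symbols. They came to 54 probes for 40 of the 32451 genes or accessions on the array. For 28 genes there was 1 probe and for 12 there were several, and each gene is given by its brightest probe on average.

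Spleens of female balb/c mice were compared in 3 groups of 3 samples, with total RNA hybridised in 1 colour. The normal Se GD group had Graves' disease (GD) and a normal dietary supply of selenium (Se). The low Se GD group had the disease and a low supply, and the low Se non-GD group had a low supply and no disease. Graves' disease is an autoimmune disease of the thyroid, and selenium is the trace element built into selenoproteins. How the disease was brought about, the diets' contents and the ages are not stated in the labels or files used here, and no disease-free group on normal Se was analysed here. The labels do not say whether each group's samples were taken from separate mice, so p-values measure only the spread between these samples. In whole spleen, a change in the number of stromal cells and a change in RNA per cell cannot be told apart.

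The structural backbone of such tissue is known well. Fibrillar collagens I, III and V form the reticular fibres and capsule, while collagen IV, laminins, nidogens and perlecan form the sheets under vessels. Fibroblastic reticular cells, smooth muscle cells and pericytes make most of it, and PDGF receptors mark these cells. Matrix metalloproteinases (MMPs) cut the matrix and TIMPs block them.

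Signal is given on 1 scale throughout: log2 of the processed intensity minus the 75th percentile of that array, called log2 signal. A value of 0 is as bright as that percentile, and 1 unit is a factor of 2. Probes differ in how well they bind, so no gene's level is set against another's. Differences between group means are log2 fold changes from 1 limma fit over the 9 arrays, and a gene "rose", "fell" or passed where its Benjamini-Hochberg adjusted p over 26325 genes was under 0.05. Of the 40 members, 39 were tested, and 34 of these were well above background on all 9 arrays. Tnc (tenascin-C, a matricellular protein of remodelling tissue) was above background on 1 array and is given no level. Col15a1 was above background on 6 arrays, Lum on 7, and Col5a2, Fbln1 and Lox on 8.

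Some arrays stood apart. The share of spots well above background was 58.4% on normal Se GD replicate 3 and between 72.6% and 82.6% on the other 8, and no spot was saturated. The value of low Se GD replicate 2 was between those of its 2 fellow arrays for 69.0% of the 18541 genes above background on every array, and that of low Se non-GD replicate 3 for 78.3%. For the matrix members this was so for 31 and 33 of 39 genes. Results are therefore also given without these 2 in-between arrays. Arrays shared 3 scan times: low Se GD replicate 1 was scanned with the 3 low Se non-GD arrays (scan 1), replicates 2 and 3 of low Se GD together with replicates 1 and 2 of normal Se GD (scan 2), and normal Se GD replicate 3 alone. A spike-in control of adenovirus E1A stood at 2.37, 1.43 and 0.87 on the normal Se GD arrays and 2.51, 1.71 and 1.01 on low Se GD arrays, against 4.72, 5.85 and 5.35 on low Se non-GD arrays. Its part in the results was not tested. All 12 spleen lymphoid and red pulp markers were above background on all 9 arrays. Of 15 pancreas markers, 5 to 13 were also above background on an array, so such counts do not test the tissue label.

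Promoter sequence is shown for 6 members that the comparisons turn on and that the RefSeq table for GRCm38.p6 holds: 4 that rose in both GD groups against low Se non-GD, Bgn, which was called between the GD groups, and Mmp14, which fell in low Se GD. Each line is the 120 bases before the annotated start, 5′ to 3′ on the gene's strand. Capitals mark a GC box (GGGCGG, or CCGCCC on the other strand) or a CCAAT box (CCAAT, or ATTGG on the other strand). In Bgn and in Mmp14 some matches overlap and run together.
Pdgfra: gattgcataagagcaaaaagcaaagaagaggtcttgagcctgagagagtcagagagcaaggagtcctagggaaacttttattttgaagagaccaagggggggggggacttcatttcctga
Nid1: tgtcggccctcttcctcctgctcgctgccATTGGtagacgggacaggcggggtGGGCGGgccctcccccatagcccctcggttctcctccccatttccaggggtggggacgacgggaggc
Timp2: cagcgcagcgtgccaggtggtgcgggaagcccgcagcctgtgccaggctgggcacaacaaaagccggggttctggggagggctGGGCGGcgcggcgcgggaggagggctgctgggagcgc
Timp3: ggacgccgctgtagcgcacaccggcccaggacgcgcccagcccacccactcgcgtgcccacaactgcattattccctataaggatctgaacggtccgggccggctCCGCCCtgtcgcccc
Bgn: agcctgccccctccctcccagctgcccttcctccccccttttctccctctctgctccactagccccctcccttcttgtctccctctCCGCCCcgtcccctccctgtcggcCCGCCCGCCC
Mmp14: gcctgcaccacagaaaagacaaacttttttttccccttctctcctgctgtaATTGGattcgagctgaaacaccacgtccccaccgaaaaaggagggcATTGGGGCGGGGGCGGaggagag
These 6 windows lie at chr5:75152131-75152250 (Pdgfra, plus strand), chr13:13437482-13437601 (Nid1, plus), chr11:118355412-118355531 (Timp2, minus), chr10:86300292-86300411 (Timp3, plus), chrX:73483481-73483600 (Bgn, plus) and chr14:54431478-54431597 (Mmp14, plus). Their GC content was between 46.7% in Pdgfra and 75% in Timp2, and the Pdgfra window holds none of the motifs searched. Over the 250 bases before the start, the table had 33 promoters for 27 of the members. A GC box was found in 19 of these 33 (57.6%), against 32.7% of all 32851 promoters. A CCAAT box was found in 11 (33.3%, against 33.8% of all), and a TATA box (TATAAA, or TTTATA) in 5 (15.2%, against 12.4%). The TATA matches were in Col3a1, Postn, Tnc and Vim.

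In low Se GD spleens, against low Se non-GD spleens, 9 of 39 matrix and stromal genes rose and 2 fell. The genes that rose were Pdgfra, Lama2, Lamc1, Nid1, Sparcl1, Timp2, Timp3, Fbln5 and Col14a1, by 0.42 to 1.32 on the log2 scale. Col5a2 and Mmp14 fell. Neither chain of collagen I, Col1a1 or Col1a2, passed. The 11 members that passed were 28.2% of the 39, while 24.9% of all genes tested passed. By direction, 23.1% of members were higher and 5.13% lower, against 12.8% and 12.2% of all genes. The groups did not overlap for 20 members (51.3%), against 53% of all genes, and the median member change was 0.11, against 0.08 over all genes, though with normexp background correction these medians were -0.045 and -0.16. Of all called genes 51.2% were higher, and 40.9% with normexp. In number and in median size the members were thus near the background, though not in the split by direction. What follows describes which of them passed. Without the 2 in-between arrays 0 of 39 passed by limma, against 1.02% of all genes. At an unadjusted p under 0.05 there were 10 of 39, against 21.2% of all genes. All 11 kept their direction there, with adjusted p between 0.0769 (Mmp14) and 0.270 (Col14a1). Within scan 1, with 1 low Se GD array, 2 passed (Pdgfra higher, Col3a1 lower; 3.57% of all genes). With scan as a block 13 passed (8 higher and 5 lower, against 28.3% of all genes). The calls of Col5a2, Col14a1, Lama2, Nid1 and Sparcl1 were lost there. Bgn, Fbln1 and Lox came in as higher, and Col1a1, Col3a1, Col6a1 and Fn1 as lower. The count was 7 without low Se GD replicate 2 (13.1% of all genes) and 7 without low Se non-GD replicate 3 (13.5%).

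In normal Se GD spleens, against low Se GD spleens, 1 of 39 passed: Bgn (biglycan) rose by 0.80 (SE 0.14, adjusted p = 0.0498). Of all genes 1.27% passed, 0.976% higher and 0.292% lower. The higher share of called genes was 76.9%, and 88.1% when scaled over probes above background on all arrays. The groups did not overlap for 15 members (38.5%), against 29.4% of all genes. The fold change was above 0 for 29 of 39 members, with a median of 0.22, against 0.00 over all genes (0.16 with normexp). At an unadjusted p under 0.05 there were 5 members (12.8%), against 19.4% of all genes. Bgn kept its call under 7 of 23 other settings. The call was lost without the 2 in-between arrays (adjusted p = 0.512) and without any 1 of 8 arrays. Without normal Se GD replicate 3 both Bgn and Mmp14 passed, as did 4.09% of all genes. Within scan 2, where both groups had 2 arrays, Bgn (0.95, adjusted p = 0.0376) and Mmp14 (0.51, adjusted p = 0.0431) passed as higher and Col5a1 (-0.84, adjusted p = 0.0358) as lower, with 10.6% of all genes past the threshold there.

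In normal Se GD spleens, against low Se non-GD spleens, which differ in disease and in selenium, 13 of 39 rose and 1 fell. Risers were Pdgfra, Pdgfrb, Bgn, Fbln5, Timp1, Timp2, Timp3, Lama2, Lamc1, Nid1, Col14a1, Col4a1 and Col18a1, by 0.50 to 1.26. The gene that fell was Col5a2. This was 35.9% of members, against 32.3% of all genes. Higher calls made up 33.3% of members and 18.9% of all genes, and lower calls 2.56% of members and 13.4% of all genes. Calls with groups that did not overlap were 14 of the 39 and 32.2% of all genes. The groups did not overlap for 22 members (56.4%), against 49.1% of all genes, and the median change was 0.24, against 0.06. This comparison and the one between the low Se groups share the low Se non-GD arrays, so their values are not independent. Lamc1, Bgn, Fbln5 and Timp2 were the 4 members past the threshold without the 2 in-between arrays (11.6% of all genes). The count was 8 without low Se non-GD replicate 3 (20.6% of all genes). With scan as a block 6 passed (5 higher, with Col3a1 lower; 18.3% of all genes), with the calls of Col5a2, Col4a1, Col18a1, Col14a1, Lama2, Nid1, Timp1, Timp3 and Pdgfrb lost, and no scan holds arrays of both groups.

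**Figure D1:**
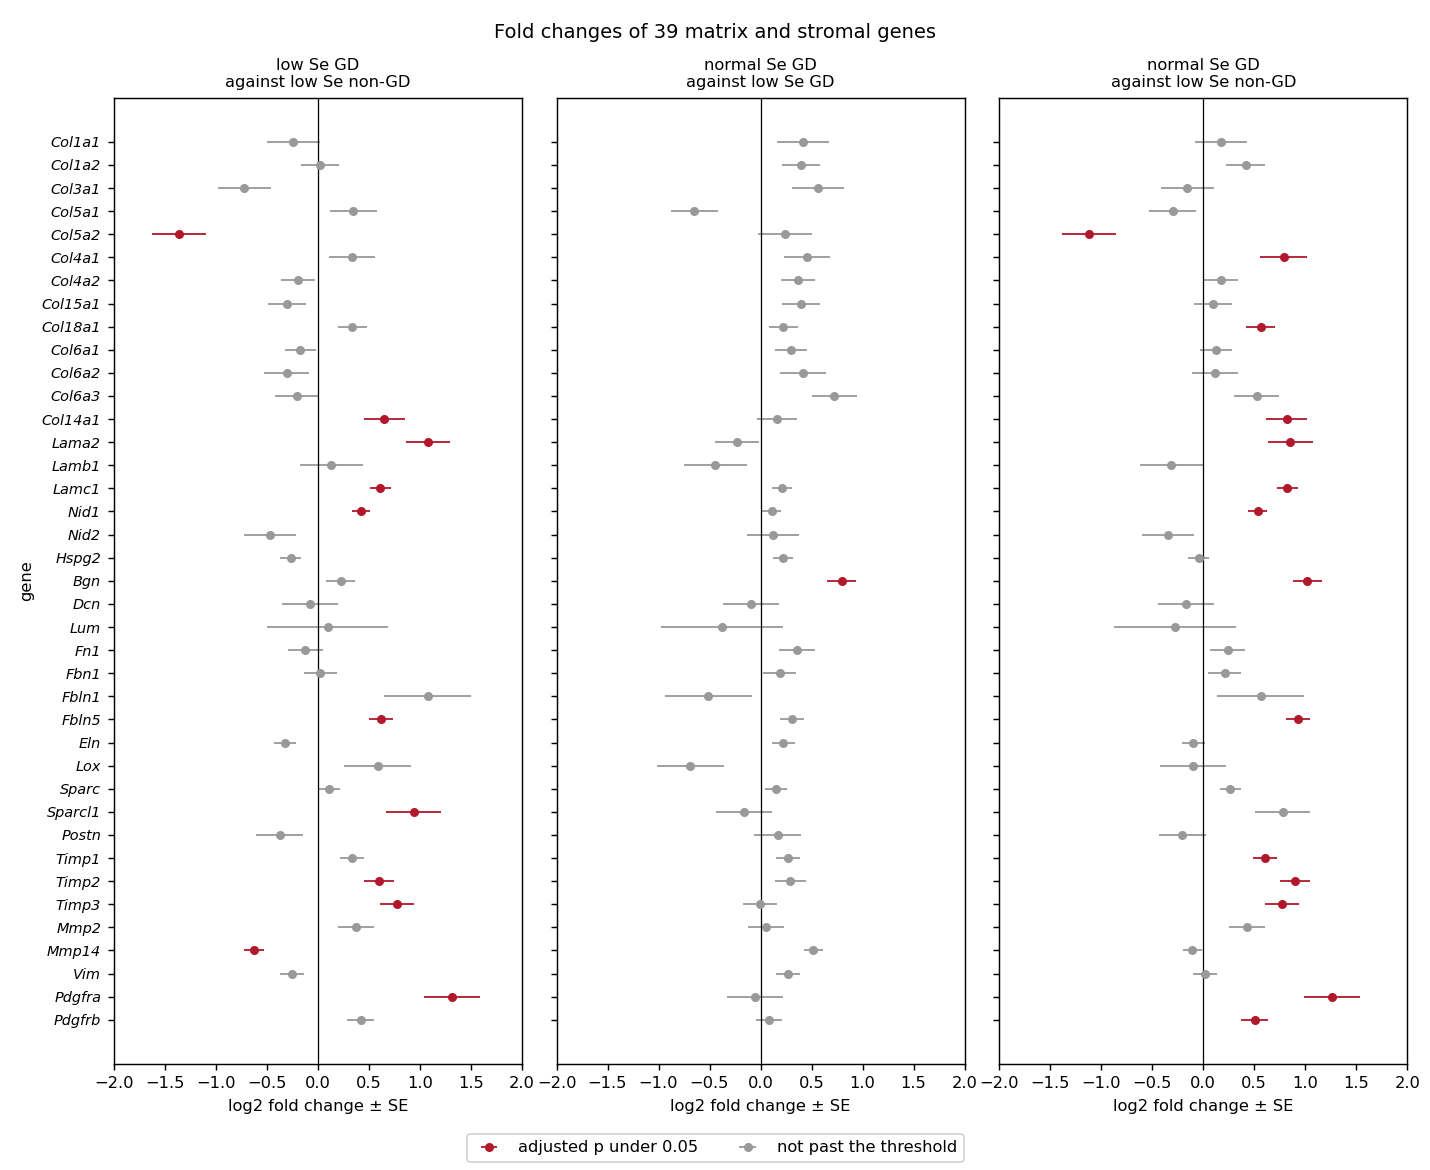
Log2 fold change (horizontal axis) with its standard error for 39 matrix and stromal genes (vertical axis) in the 3 comparisons. Red points passed an adjusted p of 0.05: 11 in low Se GD compared with low Se non-GD, 1 in normal Se GD against low Se GD, and 14 between normal Se GD and low Se non-GD.

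Of the 5 fibrillar collagen chains Col5a2 fell in both GD groups, against low Se non-GD, and 4 did not pass. Col1a1, the alpha 1 chain of collagen I, read 2.96, 3.08 and 2.94 on the normal Se GD arrays, 1.94, 2.70 and 3.09 in low Se GD spleens and 2.75, 2.90 and 2.80 in low Se non-GD spleens. The low Se GD arrays spread over more than the other groups together, and all 3 groups overlap except the normal Se GD and the low Se non-GD arrays. Low Se GD compared with low Se non-GD gave -0.24 (95% interval -0.83 to 0.35, adjusted p = 0.544). With scan as a block, which rests that comparison on low Se GD replicate 1, Col1a1 was at -0.87 and passed (adjusted p = 0.0183), as did Col6a1 at -0.50 and Fn1 at -0.42. Its partner chain Col1a2 had a log2 signal of 2.98, 2.89 and 3.22 in normal Se GD spleens, 2.22, 2.70 and 2.98 in low Se GD spleens and 2.58, 2.65 and 2.6 in low Se non-GD spleens. The change of Col1a2 was 0.02 (interval -0.42 to 0.46) between low Se GD and low Se non-GD, and 0.42 (adjusted p = 0.132) between normal Se GD and low Se non-GD.

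Col3a1, the chain of the reticular fibre collagen III, gave 2.62, 2.74 and 2.83 in normal Se GD spleens, 1.54, 2.31 and 2.65 in low Se GD spleens and 3.03, 2.75 and 2.88 in low Se non-GD spleens. Every low Se GD array was below every low Se non-GD array, but the difference of -0.72 (SE 0.26) had an adjusted p of 0.0774. With scan as a block the Col3a1 difference was -1.34 (adjusted p = 0.00684), resting on the lowest array, replicate 1 of low Se GD. Of the collagen V chains, which nucleate collagen I fibrils, Col5a2 fell in both GD groups. Its log2 signal was -4.39, -4.48 and -4.26 on normal Se GD arrays, -4.38, -4.70 and -4.76 in low Se GD spleens and -3.84, -2.71 and -3.22 in low Se non-GD spleens. The low Se non-GD arrays lay above all others. Col5a2 fell by 1.36 (SE 0.26, adjusted p = 0.00913) in low Se GD spleens and fell by 1.12 (adjusted p = 0.0148) in normal Se GD, against low Se non-GD, on a dim probe that was not above background on 1 normal Se GD array. With scan as a block the call was lost in both (adjusted p = 0.0899 and 0.299). Col5a1 passed in no comparison, at 0.35, -0.65 and -0.30 for low Se GD compared with low Se non-GD, normal Se GD against low Se GD and normal Se GD against low Se non-GD.

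Among the basement membrane collagens, Col4a1 and Col18a1 rose in normal Se GD spleens, against low Se non-GD spleens. Col4a1, a chain of the collagen IV network, read -0.63, -0.63 and 0.07 on normal Se GD arrays, -0.95, -0.83 and -0.77 in low Se GD spleens and -0.89, -1.51 and -1.16 in low Se non-GD spleens. The normal Se GD arrays were above all others, with replicate 3 the highest. Col4a1 rose by 0.79 (SE 0.23, adjusted p = 0.0318) in normal Se GD, against low Se non-GD; without normal Se GD replicate 3 it still passed, and with scan as a block it did not (0.40, adjusted p = 0.370). Its partner Col4a2, whose gene lies head to head with Col4a1, read -0.67, -0.87 and -0.51 in normal Se GD, -1.15, -1.02 and -0.98 in low Se GD and -0.55, -1.14 and -0.87 in low Se non-GD. The 2 GD groups did not overlap for Col4a2, but the difference of 0.37 had an adjusted p of 0.276, and against low Se non-GD it was 0.17. Col18a1, the source of endostatin, had -0.89, -1.04 and -0.69 in normal Se GD, -1.37, -1.0 and -0.93 in low Se GD and -1.38, -1.49 and -1.44 in low Se non-GD. Col18a1 rose by 0.56 (SE 0.14, adjusted p = 0.0206) in normal Se GD, against low Se non-GD, and a second probe gave 0.25 (adjusted p = 0.329). Col18a1 with scan as a block was at 0.068 (adjusted p = 0.728), and its call held under 14 of 22 other settings. Col15a1 was above background on 1 low Se non-GD array and did not pass.

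Of the laminin, nidogen and perlecan genes, Lamc1, Lama2 and Nid1 rose in both GD groups, against low Se non-GD. Laminins are trimers of an alpha, a beta and a gamma chain, and nidogen bridges them to collagen IV. Lamc1, the common gamma 1 chain, read -0.53, -0.43 and -0.34 in normal Se GD spleens, -0.52, -0.67 and -0.75 in low Se GD spleens and -1.32, -1.26 and -1.21 in low Se non-GD spleens. All 6 GD arrays lay above all 3 low Se non-GD arrays. Lamc1 rose by 0.61 (SE 0.10, adjusted p = 0.00474) in low Se GD spleens and by 0.83 (adjusted p = 0.00133) in normal Se GD, against low Se non-GD. The second of these calls held under all 22 other settings.

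Lama2, the alpha 2 chain best known from muscle, had -1.71, -1.73 and -1.68 in normal Se GD, -1.46, -1.44 and -1.52 in low Se GD and -2.06, -3.05 and -2.56 in low Se non-GD. The 3 groups were apart from each other, with low Se GD highest. It rose by 1.08 (SE 0.22, adjusted p = 0.0102) in low Se GD spleens, against low Se non-GD, and by 0.85 (adjusted p = 0.0199) in normal Se GD. Its second probe also rose in both, at 1.01 (adjusted p = 0.0115) and 1.17 (adjusted p = 0.00471). Nid1 read 1.38, 1.44 and 1.41 in normal Se GD, 1.20, 1.35 and 1.35 in low Se GD and 0.96, 0.78 and 0.89 in low Se non-GD. Nid1 rose by 0.42 (SE 0.09, adjusted p = 0.0133) in low Se GD spleens and by 0.53 (adjusted p = 0.00412) in normal Se GD, against low Se non-GD. Its dimmer probes did not pass in low Se GD (adjusted p = 0.0738 and 0.225) and rose in normal Se GD, at 1.34 (adjusted p = 0.00476) and, for a probe above background on no low Se non-GD array, at least 1.57-fold (adjusted p = 0.0240).

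The other basement membrane members gave no call. Lamb1, the beta 1 chain, was at 0.13 and -0.31 in low Se GD spleens and normal Se GD spleens, each against low Se non-GD, and Nid2 at -0.47 and -0.35. Hspg2, the gene of the heparan sulfate proteoglycan perlecan, was at -0.27 (adjusted p = 0.0897) and -0.05. A second Hspg2 probe passed as higher in both (adjusted p = 0.0464 and 0.00382). That probe was above background on 2 normal Se GD, 1 low Se GD and 0 low Se non-GD arrays, so no fold is given for it.

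Collagens VI and XIV sit beside the fibrils and link them to cells. Col14a1 had 0.41, 0.39 and 0.38 in normal Se GD, -0.13, 0.25 and 0.56 in low Se GD and -0.17, -0.71 and -0.40 in low Se non-GD. By this probe it rose by 0.65 (SE 0.20, adjusted p = 0.0456) in low Se GD spleens and by 0.82 (adjusted p = 0.0160) in normal Se GD, against low Se non-GD. A second Col14a1 probe, also above background on all 9 arrays, fell by 2.51 (adjusted p = 0.00418) and fell by 2.67 (adjusted p = 0.00228) in the same comparisons. The direction of Col14a1 therefore depends on the probe. The low Se GD call held under 7 of 23 other settings, and with scan as a block that change was 0.30 (adjusted p = 0.378). The 3 chains of collagen VI did not pass. Col6a3 was the nearest, with -1.30, -1.29 and -0.90 in normal Se GD, -2.29, -1.83 and -1.55 in low Se GD and -1.49, -1.94 and -1.63 in low Se non-GD, and 0.72 (adjusted p = 0.128) between normal Se GD and low Se GD.

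**Figure D2:**
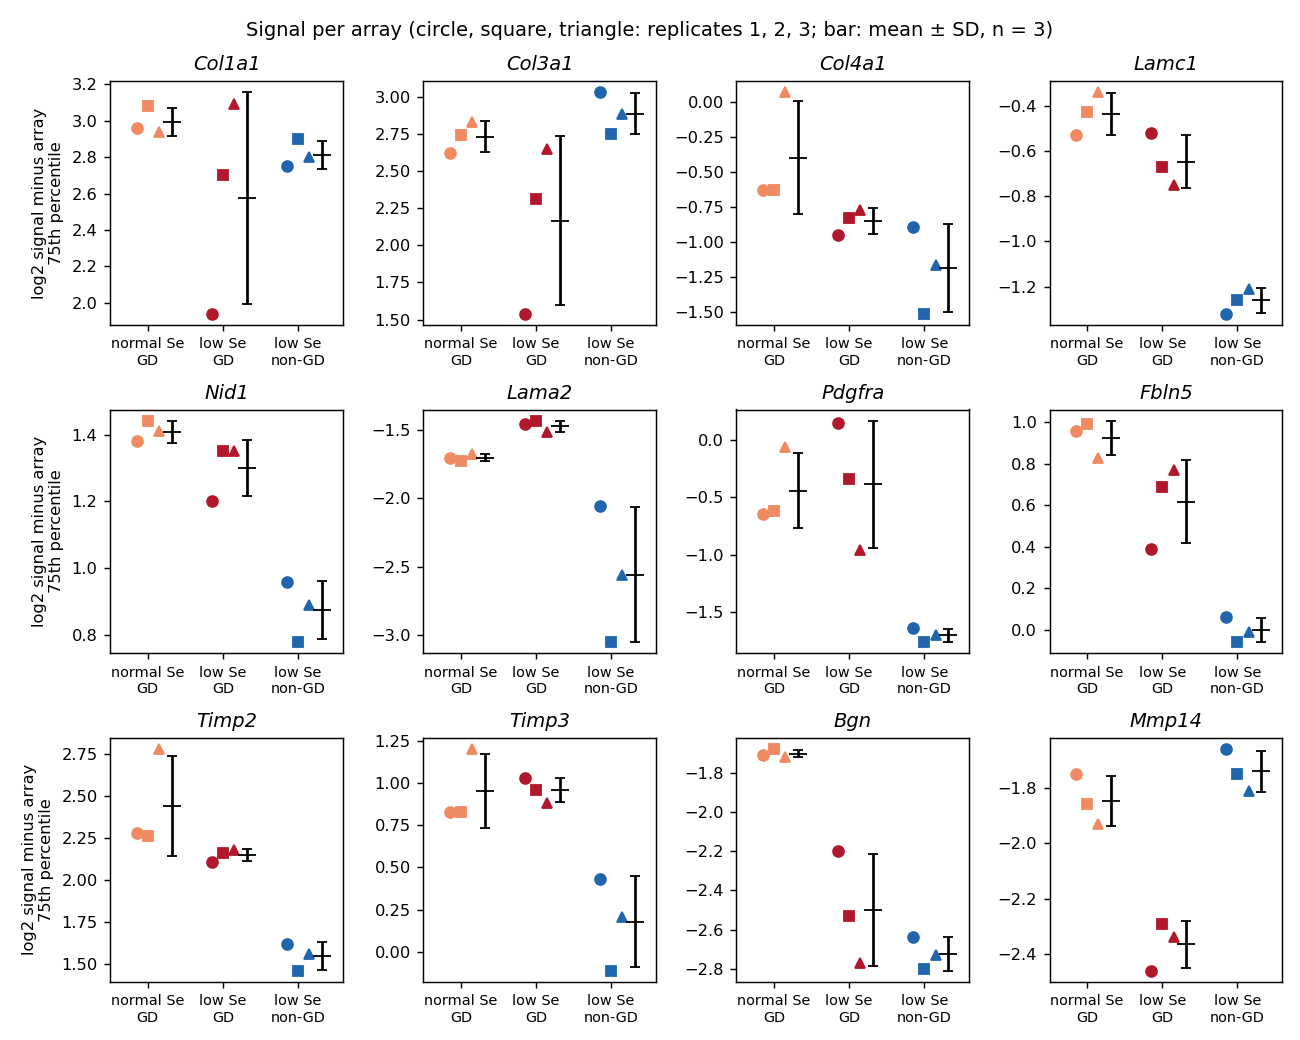
Log2 signal (vertical axis, relative to the 75th percentile of the array) of 12 genes on each array, with the mean and SD of each group of 3 beside the points. For Lamc1, Nid1, Lama2, Pdgfra, Fbln5, Timp2 and Timp3 all GD arrays lie above all low Se non-GD arrays; for Mmp14 the low Se GD arrays lie below the other 6, and for Bgn the normal Se GD arrays lie above the other 6.

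Of the small leucine-rich proteoglycans, which coat collagen fibrils, Bgn passed between the GD groups. Bgn read -1.71, -1.68 and -1.72 in normal Se GD spleens, -2.20, -2.53 and -2.77 in low Se GD spleens and -2.64, -2.80 and -2.73 in low Se non-GD spleens. The normal Se GD arrays were closely grouped and above the other 6, while low Se GD and low Se non-GD overlapped. Bgn rose by 1.02 (SE 0.14, adjusted p = 0.00206) in normal Se GD, against low Se non-GD, a call held under all 22 other settings. Low Se GD compared with low Se non-GD gave 0.22 (95% interval -0.11 to 0.56). With scan as a block, which rests that comparison on low Se GD replicate 1, Bgn was at 0.52. Dcn (decorin), of the same family, was at 1.93, 2.08 and 2.05 in normal Se GD, 2.43, 2.17 and 1.75 in low Se GD and 2.70, 1.63 and 2.25 in low Se non-GD. Its 3 groups overlapped and no Dcn comparison passed (adjusted p between 0.678 and 0.882). Lum (lumican) had the widest spread of the 39 members tested, an SD of 1.02 over the normal Se GD arrays and 0.93 over the low Se non-GD arrays, and did not pass.

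Of the elastic fibre and fibronectin genes, Fbln5, the fibulin that helps elastin assemble, rose in both GD groups. Its log2 signal was 0.96, 0.99 and 0.83 in normal Se GD, 0.39, 0.69 and 0.77 in low Se GD and 0.06, -0.06 and -0.01 in low Se non-GD. The 3 groups were apart, in the order normal Se GD, low Se GD, low Se non-GD. Fbln5 rose by 0.62 (SE 0.12, adjusted p = 0.00872) in low Se GD spleens and by 0.93 (adjusted p = 0.00157) in normal Se GD, against low Se non-GD. Between the 2 GD groups the difference was 0.31 (adjusted p = 0.214). Eln (elastin) itself was at -0.32 (adjusted p = 0.0687) and -0.10, Fn1 (fibronectin) at -0.12 and 0.24, and Fbn1 (fibrillin 1) at 0.02 and 0.21, for low Se GD and normal Se GD against low Se non-GD. Fbln1 (fibulin 1) was at 1.08 with an interval of 0.09 to 2.07 and an adjusted p of 0.105 in low Se GD spleens, against low Se non-GD. Lox, the enzyme that cross-links collagen and elastin, was at 0.59 (adjusted p = 0.233). With scan as a block, resting on low Se GD replicate 1, Fbln1 was at 1.64 and Lox at 1.23 in that comparison.

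Among matricellular genes, which modulate cell contact with the matrix, Sparcl1 rose in low Se GD. It read 1.83, 1.83 and 2.41 in normal Se GD, 2.41, 2.18 and 1.97 in low Se GD and 1.71, 0.75 and 1.28 in low Se non-GD. All GD arrays exceeded all low Se non-GD arrays. Sparcl1 rose by 0.94 (SE 0.27, adjusted p = 0.0390) in low Se GD, and was at 0.78 (adjusted p = 0.0613) in normal Se GD, against low Se non-GD. Its low Se GD call held under 11 of 23 other settings. Sparc was at 0.11 and 0.27 and Postn (periostin) at -0.37 and -0.21 in low Se GD spleens and normal Se GD spleens, against low Se non-GD, with no call.

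Of the 3 inhibitors of metalloproteinases, 2 rose in low Se GD spleens and 3 in normal Se GD spleens, against low Se non-GD. Timp3, the inhibitor bound to the matrix, had 0.83, 0.83 and 1.20 in normal Se GD, 1.03, 0.96 and 0.88 in low Se GD and 0.43, -0.11 and 0.21 in low Se non-GD. It rose by 0.78 (SE 0.16, adjusted p = 0.0123) in low Se GD spleens and by 0.77 (adjusted p = 0.00980) in normal Se GD, against low Se non-GD. The GD groups overlapped each other and were above every low Se non-GD array. Timp2, an inhibitor that also takes part in activating MMP2 with MMP14, read 2.28, 2.26 and 2.78 in normal Se GD, 2.11, 2.16 and 2.18 in low Se GD and 1.62, 1.46 and 1.56 in low Se non-GD. Timp2 rose by 0.60 (SE 0.15, adjusted p = 0.0218) in low Se GD spleens and by 0.90 (adjusted p = 0.00360) in normal Se GD, against low Se non-GD. A second Timp2 probe, above background on all 9 arrays, gave -0.05 (adjusted p = 0.732) and 0.20 (adjusted p = 0.142) and did not pass. Timp1, the inducible inhibitor, had -1.98, -1.84 and -2.03 in normal Se GD, -2.40, -2.11 and -2.15 in low Se GD and -2.46, -2.67 and -2.53 in low Se non-GD. Timp1 rose by 0.60 (SE 0.12, adjusted p = 0.00666) in normal Se GD, against low Se non-GD.

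Mmp14, the membrane-bound protease that activates MMP2, went the other way in low Se GD. It read -1.75, -1.86 and -1.93 in normal Se GD, -2.46, -2.29 and -2.34 in low Se GD and -1.66, -1.75 and -1.81 in low Se non-GD. The low Se GD arrays were below all 6 others, while normal Se GD and low Se non-GD overlapped. Mmp14 fell by 0.62 (SE 0.10, adjusted p = 0.00384) in low Se GD spleens, against low Se non-GD. Normal Se GD against low Se GD gave 0.52 (95% interval 0.29 to 0.74, adjusted p = 0.0517), and normal Se GD against low Se non-GD gave -0.11. Mmp2, the gelatinase, was at 0.38 (adjusted p = 0.168) and 0.43 (adjusted p = 0.106) in low Se GD spleens and normal Se GD spleens, against low Se non-GD.

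Pdgfra, the PDGF receptor of fibroblastic cells, gave the largest change of any member that rose. Its log2 signal was -0.64, -0.62 and -0.06 in normal Se GD, 0.15, -0.34 and -0.96 in low Se GD and -1.64, -1.76 and -1.70 in low Se non-GD. The low Se non-GD arrays were close together and below all GD arrays, while the low Se GD arrays spread by more than 1 unit. Pdgfra rose by 1.32 (SE 0.28, adjusted p = 0.0121) in low Se GD spleens and by 1.26 (adjusted p = 0.0111) in normal Se GD, against low Se non-GD, which is 2.49 and 2.40-fold. Within scan 1 the low Se GD change was 1.85 (adjusted p = 0.0193), on 1 low Se GD array. Pdgfrb, the receptor of pericytes and reticular cells, read 2.23, 2.16 and 2.5 in normal Se GD, 2.24, 2.24 and 2.16 in low Se GD and 1.98, 1.62 and 1.77 in low Se non-GD. It rose by 0.50 (SE 0.13, adjusted p = 0.0216) in normal Se GD and was at 0.42 (adjusted p = 0.0510) in low Se GD spleens, against low Se non-GD. Vim (vimentin), the intermediate filament of mesenchymal cells and of many leukocytes, was at 0.02 and -0.25 in these groups.

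**Figure D3:**
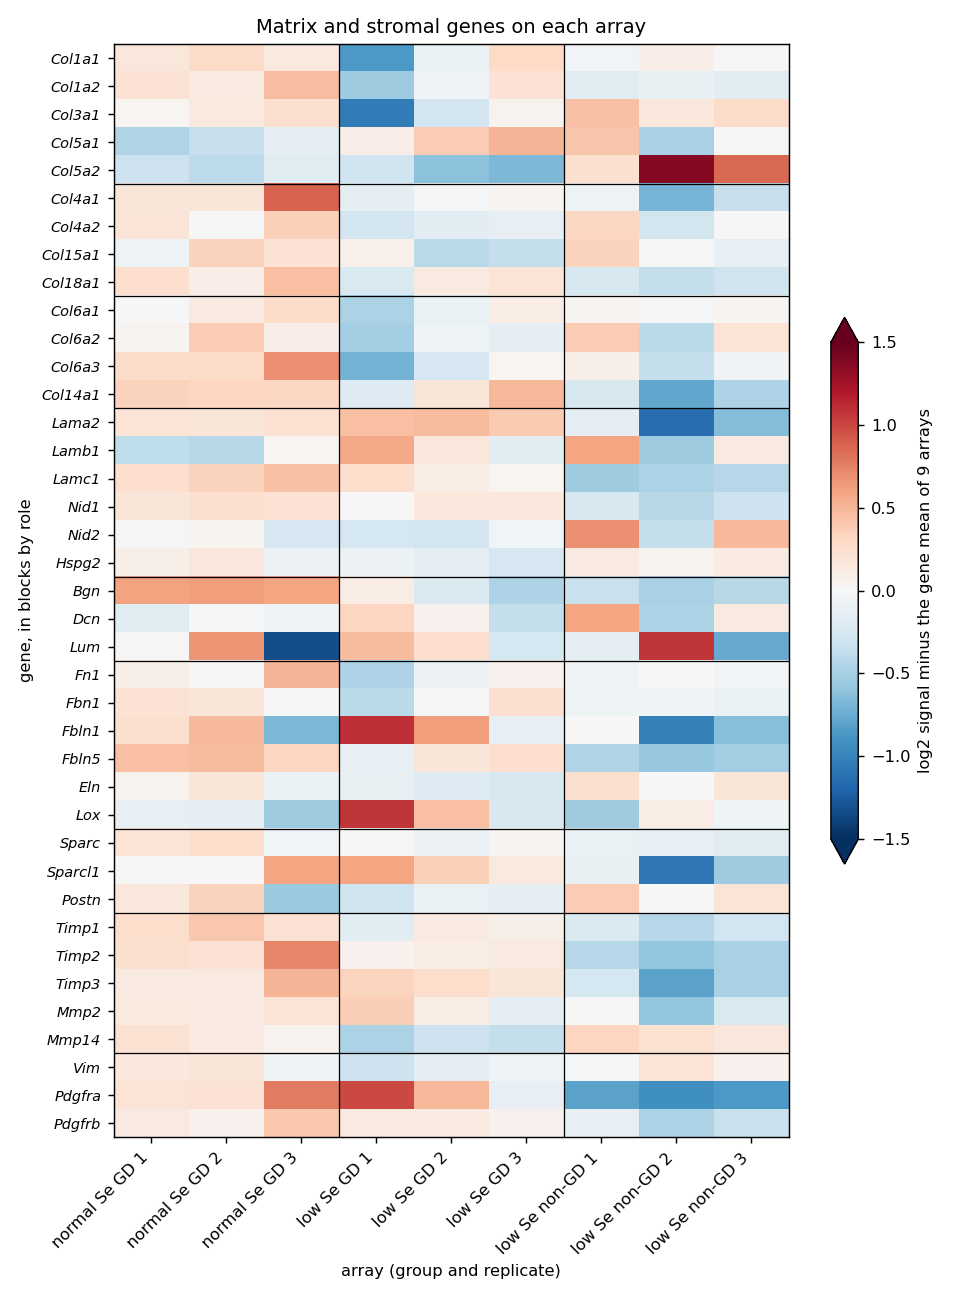
Log2 signal of 39 genes on each of the 9 arrays (columns) minus the mean of the gene over all arrays, with genes (rows) in blocks by role; red is above the mean, blue below, and colours end at 1.5 either way. Low Se GD replicate 1 is the lowest array for Col1a1 (1.94) and Col3a1 (1.54) and the highest for Fbln1, Lox and Pdgfra (0.15).

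The low Se GD arrays differed among themselves, with replicate 2 between the other 2 for 31 of 39 members. This was also so for 69.0% of the genes above background on every array. The members thus fell mainly into 2 opposite orders, as most genes did. On these arrays 16 members were lowest on replicate 1 and highest on replicate 3 (41.0%, against 27.9% of all genes), and 15 were highest on replicate 1 and lowest on replicate 3 (38.5%, against 35.4% of all genes). The first set held Col1a1, Col1a2, Col3a1, Col4a1, Col4a2, Col5a1, Col6a1, Col6a3, Col14a1, Col18a1, Nid1, Fn1, Fbn1, Fbln5, Timp2 and Vim. Col1a1 was the widest of these, at -1.14 for replicate 1 minus replicate 3. In the second were Pdgfra, Pdgfrb, Lox, Fbln1, Eln, Lamb1, Lamc1, Hspg2, Col5a2, Sparcl1, Timp3, Mmp2, Bgn, Dcn and Lum. Lox was the widest there, at 1.31. The median SD of a member was 0.22 over low Se GD arrays, 0.15 over the normal Se GD arrays and 0.18 over the low Se non-GD arrays, where all genes gave 0.15, 0.24 and 0.14. Markers of fat tissue moved over the same arrays. Fabp4, the fatty acid carrier of fat cells, read -1.04, -0.96 and -0.91 in normal Se GD, 5.5, 4.46 and 2.11 in low Se GD and 1.38, -1.63 and 0.57 in low Se non-GD. Adipoq, the hormone adiponectin, read -5.62, -5.81 and -5.04 in normal Se GD, 1.40, 0.43 and -1.52 in low Se GD and -1.97, -5.40 and -2.85 in low Se non-GD. Both were highest on low Se GD replicate 1. The summed signal of the 12 fat markers, in units of the 75th percentile, was 1.65 to 1.81 in normal Se GD, 8.79 to 78.8 in low Se GD and 3.02 to 7.37 in low Se non-GD. Of these markers 5 to 11 were above background on a normal Se GD array, 11 on each low Se GD array and 7 to 10 on a low Se non-GD array. Their part in the members' values was not tested.

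Genes of the same pathways outside the 40 were counted by list. Over all genes tested, 12.8% were higher and 12.2% lower in low Se GD spleens, and 18.9% higher and 13.4% lower in normal Se GD spleens, against low Se non-GD, and the list counts stand beside these shares. Of 20 other collagen chains tested, 2 rose and 4 fell in low Se GD, and 4 rose and 4 fell in normal Se GD, against low Se non-GD. Col8a2, a collagen of endothelial matrix, averaged -0.32 in normal Se GD and -0.57 in low Se GD spleens, against -1.49 in low Se non-GD, and rose in both (adjusted p = 0.0112 and 0.0347). Col6a5 fell by 3.09 and fell by 2.98 in the same groups (adjusted p = 0.00209 and 0.00332). Among 28 genes of collagen synthesis and crosslinking, 3 rose and 1 fell in low Se GD, and 5 rose and 2 fell in normal Se GD. Plod2, a lysyl hydroxylase of collagen, rose by 0.64 in low Se GD spleens and by 1.20 in normal Se GD, against low Se non-GD (adjusted p = 0.00991 and 0.000859). P4ha3, a prolyl hydroxylase chain, fell by 2.85 and fell by 2.80 (adjusted p = 0.00114 and 0.000859).

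Of 15 other laminin and basement membrane genes, 2 rose and 1 fell in low Se GD, and 6 rose and 0 fell in normal Se GD, against low Se non-GD. Pxdn, the peroxidase that cross-links collagen IV, rose by 0.77 in low Se GD (adjusted p = 0.00872), and Lama4, a laminin chain of vessels, rose by 0.61 in normal Se GD, against low Se GD (adjusted p = 0.0448). Of 38 other glycoproteins and proteoglycans, 2 rose and 3 fell in low Se GD and 6 rose and 2 fell in normal Se GD. Tnxb, the tenascin of collagen-rich tissue, rose by 1.02 and by 1.57 in them (adjusted p = 0.0126 and 0.00191). Of 29 other proteases and inhibitors, 4 rose and 4 fell in low Se GD and 10 rose and 4 fell in normal Se GD. Plau, the urokinase that activates plasminogen, averaged -1.60 in normal Se GD and -2.70 in low Se GD spleens, against -0.15 in low Se non-GD. It fell in both GD groups (adjusted p = 0.00104 and 0.000219), and was higher by 1.09 in normal Se GD than in low Se GD (adjusted p = 0.0411). Mmp13, a collagenase, fell by 4.09 in normal Se GD and fell by 3.88 in low Se GD (adjusted p = 0.00151 and 0.00247).

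Matrix receptors gave 12 genes that rose and 2 that fell of 23 in normal Se GD, and 7 that rose and 3 that fell in low Se GD spleens, against low Se non-GD. Of all genes 18.9% and 12.8% were higher in these groups. Receptors called with scan as a block were 5 higher and 0 lower in normal Se GD, and 5 higher and 3 lower in low Se GD. The summed signal of the 24 receptors on the array was lower in both GD groups, unlike the balance of calls. It was 41.5 to 52.4 in normal Se GD and 35.1 to 47.2 in low Se GD spleens, against 90.2 to 119 in low Se non-GD. Itgav, the integrin chain that binds fibronectin and vitronectin, averaged -0.90 in normal Se GD and -1.63 in low Se GD spleens, against -2.80 in low Se non-GD. The Itgav groups did not overlap, and it rose in all 3 comparisons (adjusted p = 0.00036 for low Se GD compared with low Se non-GD, 0.0369 for normal Se GD against low Se GD and 9.5e-05 for normal Se GD against low Se non-GD). Itga1, the collagen-binding integrin chain, fell by 2.42 in low Se GD (adjusted p = 0.00623). Among 16 TGF-beta and PDGF ligands and receptors, 3 rose and 4 fell in low Se GD: Eng, a TGF-beta co-receptor of endothelium, rose by 0.78 (adjusted p = 0.00674), and Pdgfc, a ligand of the receptor that Pdgfra encodes, fell by 2.05 (adjusted p = 0.00323). The normal Se GD counts were 5 risen and 3 fallen.

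Markers of the cells that make or border the matrix were counted in the same way. Of 19 endothelial markers 7 rose and 0 fell in low Se GD and 11 rose and 0 fell in normal Se GD, against low Se non-GD, beside 12.8% and 18.9% of all genes higher. Among them were Cdh5 (VE-cadherin; 1.23 and 1.26), Sox18 (1.69 and 1.67) and Cldn5 (1.20 and 1.23). With scan as a block, 11 endothelial markers rose and 1 fell in low Se GD, and 11 rose and 0 fell in normal Se GD. At that setting 28.3% and 18.3% of all genes passed in either direction. The summed signal of the 20 endothelial markers was 37.2 to 44.5 in normal Se GD and 38.0 to 41.8 in low Se GD spleens. In low Se non-GD spleens it was 29.3 to 32.3. It was above low Se non-GD in both GD groups, as Lamc1, Lama2 and Nid1 were, while Lamb1 and Nid2 did not pass, and its part in these values was not tested. Of 12 smooth muscle and pericyte markers 1 rose and 4 fell in low Se GD and 4 rose and 3 fell in normal Se GD. Acta2, smooth muscle actin, fell by 0.52 in low Se GD (adjusted p = 0.0336). Of 20 fibroblastic reticular and mesenchymal markers 3 rose and 5 fell in low Se GD, and 6 rose and 3 fell in normal Se GD. Cxcl12, a chemokine of red pulp stroma, rose by 1.26 in low Se GD (adjusted p = 0.0122), while Cxcl13, the chemokine of B cell follicle stroma, fell by 0.88 (adjusted p = 0.0130). Nkx2-3, a transcription factor of spleen stroma, rose by 0.66 in low Se GD spleens and by 1.02 in normal Se GD (adjusted p = 0.00385 and 0.000747). Of 8 mesothelial capsule markers 0 passed in low Se GD and 2 fell in normal Se GD, and of 12 pancreas markers 2 fell in low Se GD and 1 rose and 2 fell in normal Se GD. Of 11 fat tissue markers tested 5 rose and 1 fell in low Se GD and 1 rose and 1 fell in normal Se GD, and of the 12 spleen lymphoid and red pulp markers 3 rose and 1 fell in low Se GD and 5 rose and 1 fell in normal Se GD. Without the 2 in-between arrays, 2 endothelial markers and 1 matrix receptor rose and 1 protease or inhibitor fell in low Se GD, while the other lists had 0 calls there. At that setting in normal Se GD, 5 endothelial markers rose, 8 matrix receptors rose and 1 fell, and 2 rose and 2 fell in both the glycoprotein and the protease list. Synthesis enzymes, TGF-beta and PDGF genes and reticular cell markers each had 2 that rose and 1 that fell, 1 smooth muscle marker rose, and 2 other collagens and 1 pancreas marker fell. In normal Se GD spleens, against low Se GD spleens, the lists gave 3 proteases or inhibitors, 1 other collagen chain, 1 laminin or basement membrane gene and 1 matrix receptor that rose, and 1 fat marker, Adipoq, that fell.

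**Figure D4:**
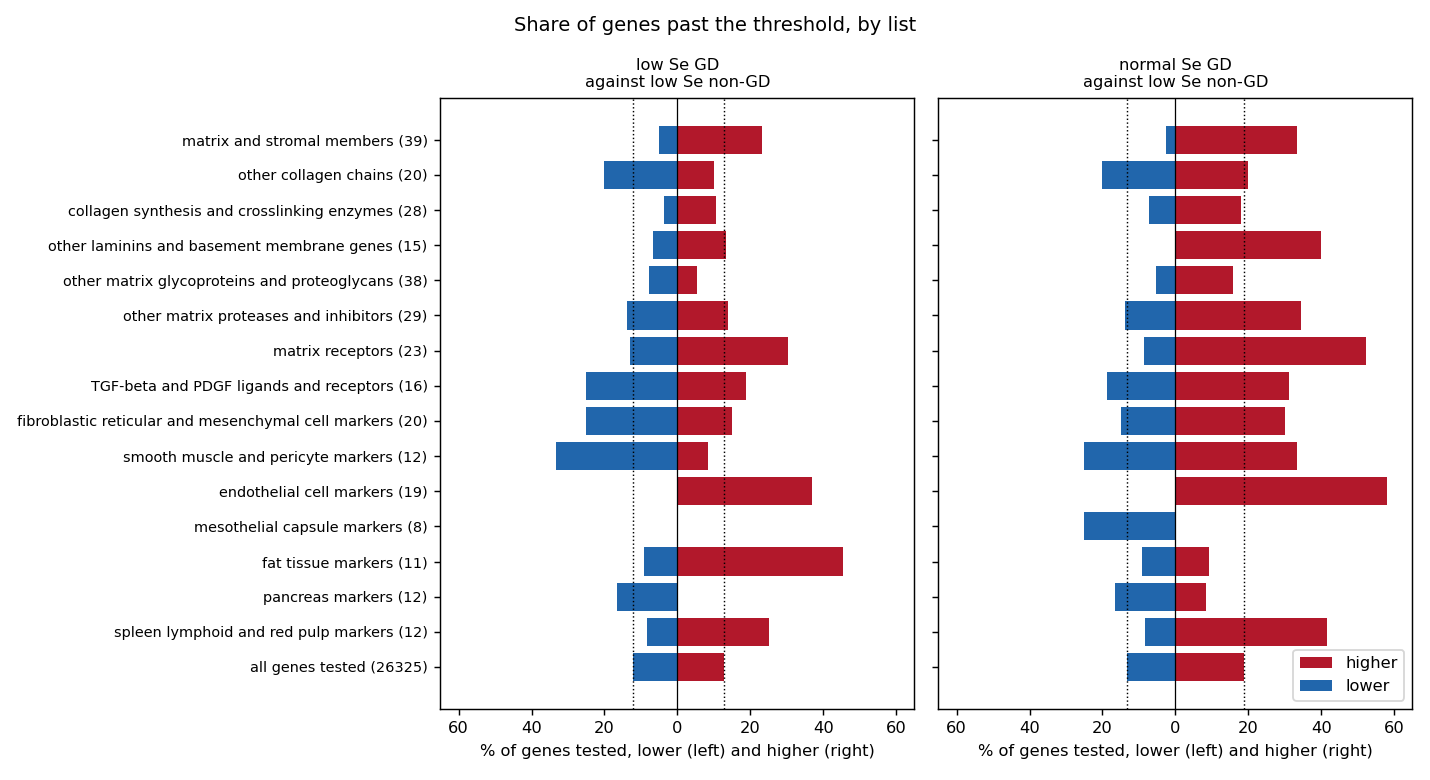
Share of the tested genes of each list (vertical axis, number tested in brackets) that passed as higher (red, right) or lower (blue, left), in % (horizontal axis), for low Se GD (left panel) and normal Se GD (right panel) against low Se non-GD. Dotted lines mark the shares over all genes tested; endothelial markers have 0 lower calls in both panels, and lower calls make up 5.13% and 2.56% of matrix members and 12.2% and 13.4% of all genes.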

How the data were processed

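Spleen RNA of 9 samples, 3 in each of 3 groups taken from the labels, was read on 1-colour Agilent arrays. The deposited scanner files hold intensity values: per the file headers, Feature Extraction 11.0.1.1 made the processed signal, which is background-subtracted. The authors' deposited value table holds log2 values of 39485 probes (median 6.43) and served as an alternative. Aligners do not apply, and the labels and headers name no other upstream step.

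Control spots and spots marked as outliers were left out, spots of a probe were averaged, and log2 of the processed signal minus the 75th percentile of each array was taken. Of 39429 probes, 27228 were named by transcript accession through RefSeq's table (GRCm38.p6), and 26325 genes well above background on at least 3 of 9 arrays were tested. Each gene was its probe with the highest mean. Group means were compared by limma 3.58.1 under R 4.3.3 (linear model with eBayes, all arrays in 1 fit), two-sided, with Benjamini-Hochberg adjustment over all genes at 0.05. Intervals are 95% and unadjusted, and values behind p-values for single probes come from a fit over probes. The number of arrays, not a read depth, limits the precision. The fit was tested on simulated data. Background correction, scaling, filters, probe choice, blocks for scan and replicate number, and arrays left out were varied.

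All 40 members are accounted for. Values on every array are given for members that passed with groups that did not overlap and for the chains of collagens I, III and IV, and up to 3 genes in each direction of the other lists are named. Members and lists were chosen with earlier results of these data known. Replicate numbers did not pair the samples: same-number arrays of different groups correlated between -0.21 and 0.10 in their deviations from the group means.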

Additional observations from a re-analysis of the deposited data

How the results depend on the processing

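Calls rested on few arrays and on how scan was treated. With 1 array left out, genes higher and lower ranged over 1493 to 5891 and 1955 to 4896 in low Se GD compared with low Se non-GD, 0 to 760 and 0 to 316 in normal Se GD against low Se GD, and 3089 to 7168 and 2326 to 4370 in normal Se GD against low Se non-GD. Members higher and lower ranged over 5 to 11 and 2 to 5, 0 to 2 and 0 to 0, and 8 to 14 and 0 to 2, and member medians over 0.10 to 0.26, 0.17 to 0.22 and 0.23 to 0.28.

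In low Se GD compared with low Se non-GD, the median member change was -0.045 with normexp. Members lower were 4 with only the 2 groups in the fit and 5 with scan as a fixed or a random block. At these settings 34.5%, 28.3% and 27.9% of all genes passed in either direction. Within scan 1, 413 genes were higher and 527 lower, with 1 member each way. Without the 2 in-between arrays, an alternative chosen after seeing the data, 65 genes were higher and 204 lower, with 0 members.

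In normal Se GD against low Se GD, 0 genes and 0 members passed with normexp, quantile normalization, median scaling or no filter on dim genes. The same held with only the 2 groups, with the replicate block and without the in-between arrays. Without those arrays 3 of 39 members had an unadjusted p under 0.05, against 9.06% of all genes. The authors' table gave 2 genes higher, 1 lower and 0 members (66.7% of calls higher). Genes higher were 628 when scaled over probes above background on all arrays (2 members), 933 (355 lower, 2 members) for genes above background on all 9, 573 (122 lower, 2 members) with every probe tested, 1243 (470 lower, 2 members) with scan as a fixed block, 1337 (602 lower, 2 members) as a random block and 1529 (1265 lower; 2 members higher, 1 lower) within scan 2.

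In normal Se GD against low Se non-GD, normexp gave 2805 genes higher and 0 members lower. Members lower were 0 for genes above background on all 9, and 2 with the mean of all probes or every probe tested. Scan as a fixed block gave 1423 genes lower and 5 members higher, and as a random block 2296 genes lower, 7 members higher and 0 lower. Without the in-between arrays there were 1642 genes higher and 1402 lower, with 4 members higher and 0 lower.

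Averaging all probes of a gene turned Col14a1 to -0.93 in both GD groups against low Se non-GD (adjusted p = 0.00879 in low Se GD spleens and 0.00636 in normal Se GD), and Hspg2 to 0.99 (adjusted p = 0.00984) in normal Se GD, since their probes disagree. The Hspg2 mean takes in a probe above background on 0 low Se non-GD arrays, so that value is no measured fold. For single genes, 120 calls were lost and 54 gained, and 2460 values kept their side of the threshold. The replicate block gave 9 of 39 members (7 higher, 2 lower) in low Se GD spleens against low Se non-GD, where 19.6% of all genes passed. In normal Se GD spleens against low Se non-GD it gave 14 of 39, where 27.3% of all genes passed. Array weights did not converge and were not run. Each low Se non-GD column of the authors' table correlated best with another array of that group, so replicate numbers there may be permuted.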
